A study of Rattus norvegicus with 6 samples.

Results

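The 2 arms of the rat miR-126a hairpin, rno-miR-126a-3p and rno-miR-126a-5p, were followed in arterial and venous plasma. They were found by name among the non-control spots of the array and are 2 of the 758 rat microRNAs it measures. Untreated male Sprague-Dawley rats, 10 weeks old, gave the blood. Arterial blood came from the abdominal aorta and venous blood from the postcava, the large vein that returns blood to the right heart. Each of 3 rats gave 1 arterial and 1 venous sample, and each sample was hybridised to 1 single-colour Agilent microRNA array, so that there were 6 arrays. The blood was taken into EDTA, and the plasma was spun in 2 steps, the second at high speed, and passed through a submicron filter before RNA extraction. The comparison asks whether a microRNA is at a different level in plasma before and after blood has passed through the tissues.

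MicroRNAs are short RNAs that lower the output of messenger RNAs they pair with, mainly through the seed near their 5′ end. miR-126 is known as a microRNA of endothelial cells, the cells that line blood vessels, and it is made from an intron of Egfl7, a gene for a protein secreted by endothelium. Both arms of its hairpin are used: the 3p arm is known to sustain VEGF signalling by lowering Spred1 and Pik3r2, and the 5p arm has targets of its own. Platelets also carry miR-126, so its presence in plasma does not point to endothelium alone.

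The mature sequences are shown because the arms have different seeds and so cannot be read as copies of each other. In the RefSeq microRNA table for rat assembly GRCr8, the 3p arm lies at chr3:29813219-29813240 and the 5p arm at chr3:29813182-29813202, both on the plus strand and within Egfl7, which runs on the same strand. The arrays were designed on another build and their files carry no coordinates, so these positions are those of the RefSeq table, where the arms are filed under the symbol Mir126b. The capitals mark the seed, bases 2 to 8, in each sequence, written 5′ to 3′.
rno-miR-126a-3p: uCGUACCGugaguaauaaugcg
rno-miR-126a-5p: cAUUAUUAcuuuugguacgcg
rno-miR-126b: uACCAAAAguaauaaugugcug

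rno-miR-126b was included because it is transcribed from the opposite strand of the same place, at chr3:29813177-29813198, and 17 of its bases are complementary to the 5p arm. The 3p arm has 22 bases, 10 of them G or C, and the 5p arm has 21 bases, 8 of them G or C. None of the other mature sequences among 693 rat names in the table carries the seed of either arm, so no seed family member could be followed beside them. The hairpin stretch that holds both arms is 59 bases long, with the arms in capitals and the 16-base loop between them in lower case.
stretch of the miR-126a hairpin: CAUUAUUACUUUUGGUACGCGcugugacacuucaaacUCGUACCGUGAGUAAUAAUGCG

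The longest run of paired bases between the arms, G:U pairs included, was 11. RefSeq files the whole hairpin under the name of the opposite strand, and the stretch was located in its reverse complement by the arm sequences.

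Each array held 12128 spots for rat microRNAs, from 4 to 16 for each probe. Between 137 and 175 microRNAs were detected on an array, where detection is the call of the scanner software, and 16.6% of the 758 were detected on all 6 arrays. These are called the detected microRNAs here. No spot was saturated. Their median processed intensity lay between 30.1 and 41.8 on the arterial arrays and between 17.2 and 52.9 on the venous arrays. With 3 arrays a group, the number of arrays limits how precise any value here is.

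The 3p arm was detected on all 6 arrays. It was read by 2 probes of 8 spots each on every array. Before any normalization between arrays, the brighter probe had a mean processed intensity, for rats 1, 2 and 3 in turn, of 39.1, 70.9 and 44.4 in arterial plasma. In venous plasma it had 23.4, 66.5 and 20.4. In rats 1 and 3 the arterial spots were all above the venous spots of the same rat, at 38.9 to 39.6 against 21.7 to 24.5 and at 41.5 to 47.4 against 19.0 to 23.0. In rat 2 the ranges overlapped, at 64.5 to 78.2 in arterial and 64.3 to 68.0 in venous plasma. All 8 spots of this probe were well above background on all 6 arrays.

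The dimmer 3p probe had 16.2, 30.1 and 17.2 in arterial plasma and 9.48, 28.2 and 8.10 in venous plasma, in the same order of rats. All 8 of its spots were well above background on every arterial array and in the venous plasma of rat 2. In venous plasma of rats 1 and 3 this held for 0 and 3 spots of 8, so the dimmer probe was near its limit there. The coefficient of variation over unflagged spots of 1 array was 0.833 to 7.43% for the brighter probe and 5.06 to 14.5% for the dimmer one. These spots repeat 1 hybridisation and are not replicates of a plasma.

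The 5p arm was read by a single probe with 16 spots on each array, and it was detected in 3 of 3 arterial and 2 of 3 venous samples. Its mean processed intensity in rats 1, 2 and 3 was 12.8, 14.6 and 7.63 on the arterial arrays. In venous plasma it was 8.22, 16.6 and 3.34. On these intensities, not normalized between arrays, it was higher in arterial plasma in rats 1 and 3 and lower in rat 2. The signs in rats 1 and 2 turned after normalization, as given below. Of the 16 spots, 10, 13 and 0 were well above background on the arterial arrays and 0, 14 and 0 on the venous arrays. In rat 3 no spot of the 5p probe passed that mark in either plasma. Its coefficient of variation over spots was 12.4 to 42.9%.

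Spots flagged as outliers by the scanner software were left out of these means. They were 9 of 48 spots for each 3p probe and 1 of 96 for the 5p probe. That 1 spot, in the arterial plasma of rat 1, would have raised the mean of the 5p probe there from 12.8 to 16.7.

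**Figure D1:**
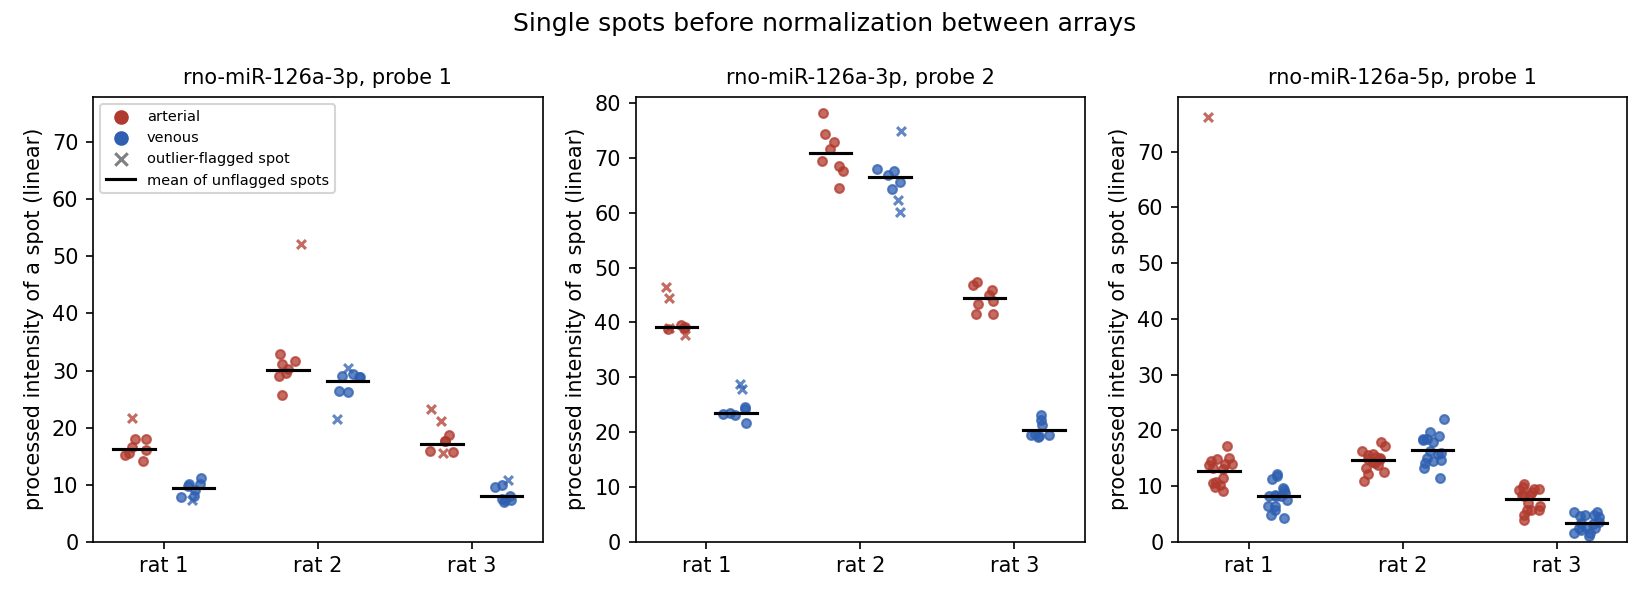
Processed intensity (linear, vertical axis from 0) of every spot of the 3 probes for the miR-126a arms, by rat, with arterial plasma in red and venous plasma in blue. Crosses are outlier-flagged spots and black lines are the means of the unflagged spots, such as 39.1 against 23.4 for 3p probe 2 in rat 1 and 70.9 against 66.5 in rat 2.

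rno-miR-126b, from the opposite strand, was detected on none of the arrays. Its 2 probes had mean processed intensities between -2.24 and 0.815, and 1 of its 96 spots was well above background. With the 17 complementary bases that it shares with the 5p arm, it gave no level that could be compared between the plasmas.

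Arrays of the same rat differed in their general brightness, and the arms moved largely with it. The median log2 ratio of arterial over venous intensity over the detected microRNAs was 0.63, -0.29 and 0.84 in rats 1, 2 and 3. The 3p arm, with its probes averaged, had log2 ratios of 0.75, 0.09 and 1.11 in the same rats. Relative to the median ratio of each rat, the 3p ratio was 0.12, 0.38 and 0.28, above 0 in 3 of 3 rats. Relative to the ratio of the arrays' median intensities it was 0.05, 0.43 and 0.30. The ratios of the 2 probes for 3p lay within 0.04 of each other in every rat, at 0.78 and 0.74 in rat 1, 0.10 and 0.09 in rat 2 and 1.08 and 1.12 in rat 3. For the dimmer probe the ratios of rats 1 and 3 are over venous readings of which 0 and 3 of 8 spots were well above background.

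The unnormalized log2 ratio of the 5p arm was 0.64, -0.18 and 1.19 in rats 1, 2 and 3. Relative to the median ratio of each rat it was 0.01, 0.11 and 0.35, and relative to the ratio of the arrays' medians -0.06, 0.16 and 0.38, so its sign in rat 1 turned with the reference. The values of rat 3 rest on a venous array where 5p was not detected and on no spot well above background in either plasma. Both arms were thus closest to the general shift in rat 1. The mean relative to the median ratio was 0.26 ± 0.13 (SD, n = 3) for 3p and 0.16 ± 0.18 for 5p, so the mean of 5p was smaller than its spread over rats.

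**Figure D2:**
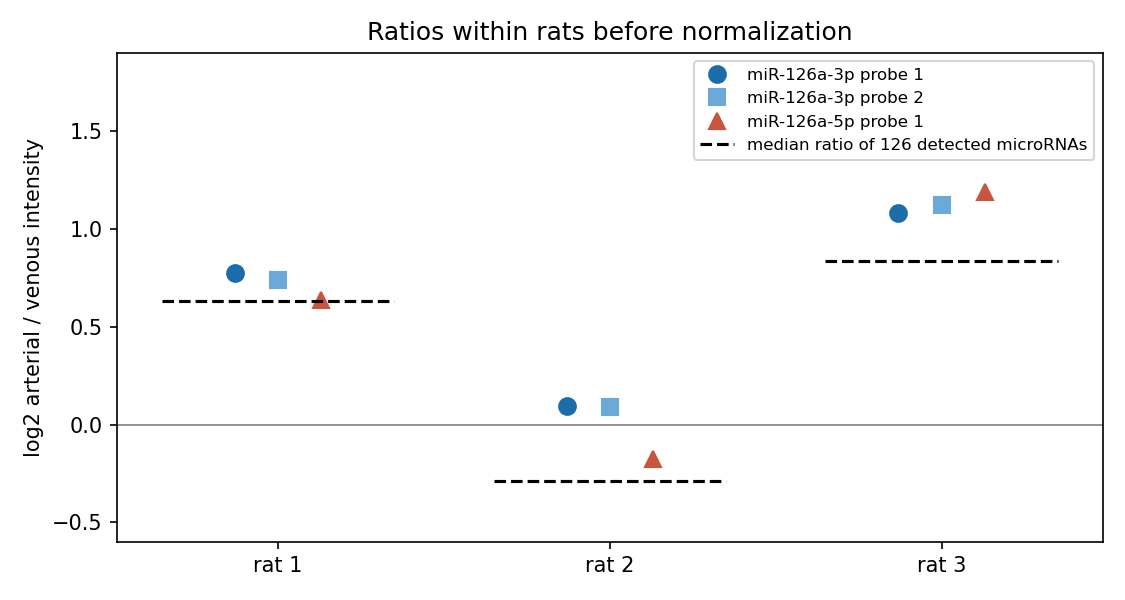
Log2 ratio of arterial over venous processed intensity before normalization (vertical axis) in rats 1, 2 and 3, for each probe of the miR-126a arms. Dashed lines mark the median log2 ratio of the microRNAs detected on all arrays, 0.63, -0.29 and 0.84, and the 3p probes lie above that line in each rat while 5p lies on it in rat 1.

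Levels after quantile normalization over all 758 microRNAs, on the log2 scale with a floor at an intensity of 1, were compared next. For rats 1, 2 and 3, the 3p arm stood at 4.49, 5.31 and 5.11 in arterial plasma and at 4.62, 4.91 and 4.76 in venous plasma. The venous levels all lay inside the arterial range, so the groups overlapped. Arterial plasma had a mean 3p level of 4.97 ± 0.43 (SD, n = 3) and venous plasma one of 4.76 ± 0.14. Within rats the difference, arterial minus venous, was -0.14, 0.40 and 0.35, higher in arterial plasma in 2 of 3 rats. In rat 1 the median difference of the detected microRNAs after this normalization was -0.13, so 3p was at that median there.

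The mean 3p difference was 0.21 on the log2 scale, which is 1.15-fold, with a limma standard error of 0.16, and the 95% interval from the spread of the 3 differences ran from -0.54 to 0.95. It did not pass limma's test, with the rat as block (unadjusted p = 0.327, adjusted p = 1 over 758 microRNAs). The two-sided exact permutation test within rats gave p = 0.5, and the smallest p that 3 pairs allow is 0.25. Over the detected microRNAs alone, limma gave an adjusted p of 0.760 for 3p, and over the other ways of normalizing and summarising that were fitted with limma the adjusted p was between 0.462 and 1 for either arm. Without rat 1, the rat in which 3p was lower in arterial plasma, the 3p difference was 0.38 and was past the study's cutoff, an unadjusted p of 0.025, in limma. That fit, with 2 rats, put 33 of the 758 past the cutoff and 0 after adjustment. Without rat 2 the 3p difference was 0.11 and without rat 3 it was 0.13, both short of the cutoff.

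The 5p arm stood at normalized log2 levels of 3.22, 3.83 and 3.24 in arterial plasma and 3.30, 3.65 and 2.45 in venous plasma. The level of 2.45, in the venous plasma of rat 3, is from the array on which 5p was not detected. The groups overlapped, with means of 3.43 ± 0.34 (SD, n = 3) in arterial and 3.14 ± 0.62 in venous plasma. The differences within rats were -0.08, 0.17 and 0.79, so the largest came from the rat with the undetected level.

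The mean 5p difference was 0.29, or 1.23-fold, with a limma standard error of 0.25, and the 95% interval from the spread of the 3 differences ran from -0.81 to 1.40. It did not pass limma's test (unadjusted p = 0.345, adjusted p = 1), and the two-sided exact permutation test gave p = 0.5. The 5p arm was higher in arterial plasma in 2 of 3 rats, as 3p was, and in the same rats. Without rat 3, the mean 5p difference was 0.05.

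**Figure D3:**
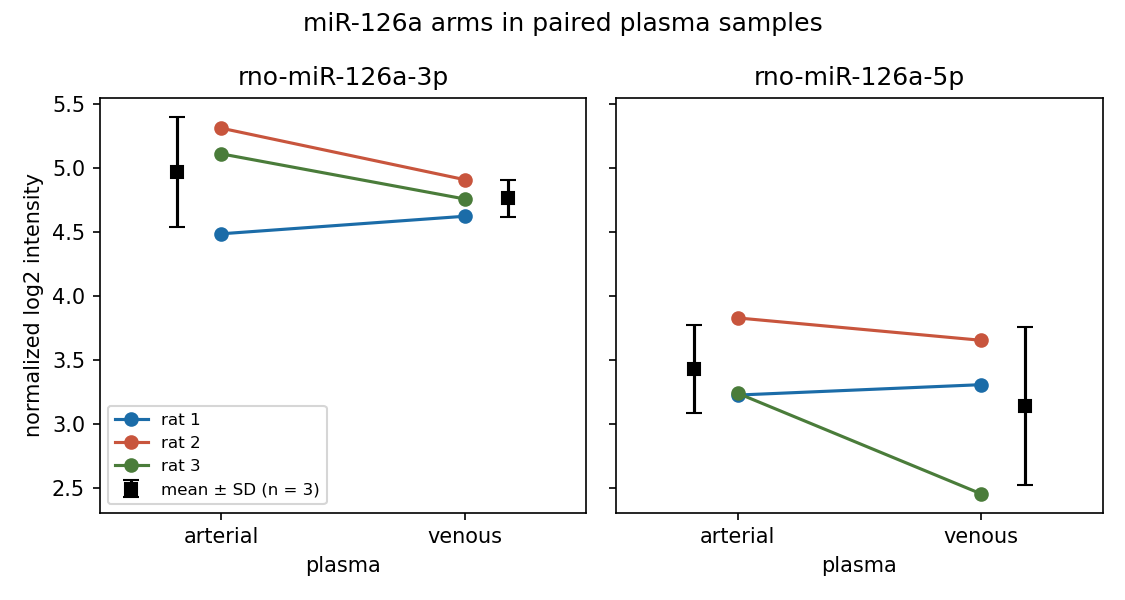
Normalized log2 intensity (vertical axis) of the miR-126a arms in arterial and venous plasma, with a line joining the samples of each rat and black squares for the mean ± SD (n = 3). For 3p the line falls from arterial to venous plasma in rats 2 and 3 and rises in rat 1 (4.49 to 4.62), and for 5p the steepest line is that of rat 3 (3.24 to 2.45).

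Whether the arms moved by different amounts was tested on the difference of their differences, 3p minus 5p, which sets no level of one arm against the other. It was -0.06, 0.23 and -0.43 in rats 1, 2 and 3, with a mean of -0.09 ± 0.33 (SD, n = 3), smaller than its spread. The two-sided exact permutation test gave p = 0.75, and the 95% interval ran from -0.91 to 0.74, so a sizeable gap between the arms in either direction could not have been seen. The value of rat 3 is set against a venous 5p level that was not detected, and without rat 3 the mean gap was 0.0860. The sign of the mean also turned when the quantile step was left out: on unnormalized intensities the gap was 0.11, 0.27 and -0.08, with a mean of 0.10. Scaling an array by a single factor moves both arms alike and leaves that gap as it is.

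The rats also differed from each other in the arms. The mean level of 3p over both plasmas was 4.55, 5.11 and 4.94 in rats 1, 2 and 3, a range of 0.56 on the log2 scale. That of 5p was 3.26, 3.74 and 2.84, a range of 0.90, where the value of rat 3 averages in a venous level that was not detected. Both arms were highest in rat 2. The lowest level was in rat 1 for 3p and in rat 3 for 5p, the latter with that undetected level included.

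Rats 1 and 2 shared 1 slide and rat 3 was on another, each slide holding arterial and venous arrays in equal number. Within the slide of rats 1 and 2 the mean difference was 0.13 for 3p and 0.05 for 5p, and on the slide of rat 3 the single differences were 0.35 and 0.79. The 3p arm thus had a positive value on each slide. The 5p difference on the slide of rat 3 is over a venous level that was not detected, so no sign is read there.

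Neither arm, 0 of 2, passed that cutoff in the main limma fit with all 3 rats. In the limma fit over all 758 microRNAs, 6 passed it (0.792%), of which 4 were higher on the arterial and 2 on the venous side. Of the 758, 557 had no detection call in any sample. MicroRNAs at the floor on every array had no difference to test and could not pass, yet they count in that share and in the adjustment. The smallest p among the 6 belonged to rno-miR-628, which itself lacked a detection call in both plasmas of every rat. At an adjusted p of 0.05 limma called 0 of the 758 (0%), while 12 had an unadjusted p under 0.05. The methods' t-test, run on the same values, called 4 at the cutoff and 0 after adjustment. On the deposited normalized table the same test called 14, the 3p arm among them, and 1 other microRNA after adjustment. In the fit over the detected microRNAs alone, 3 passed the cutoff (2.38%) and none passed the adjusted threshold (0%), and the 3p arm was not among them.

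The 3p difference lay in the upper part of the differences of the detected microRNAs, of which 60 had a higher and 66 a lower mean in arterial plasma. The 60 include rno-miR-3473, normalized to 12.1 on all arrays, whose difference was only a rounding residue. The median over the detected microRNAs was 0.00, their quartiles were -0.22 and 0.14, and 90% of them lay between -0.51 and 0.47. Counting 3p itself, 23 of them (18.3%) had a difference at least as high as its 0.21. The 5p arm is not one of them, and its difference was drawn beside theirs but not ranked among them. That difference includes the venous array of rat 3 where 5p was not detected. In all, 25 of them (19.8%) went the same way in all 3 rats, 12 up and 13 down, and 3p was not one of these.

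**Figure D4:**
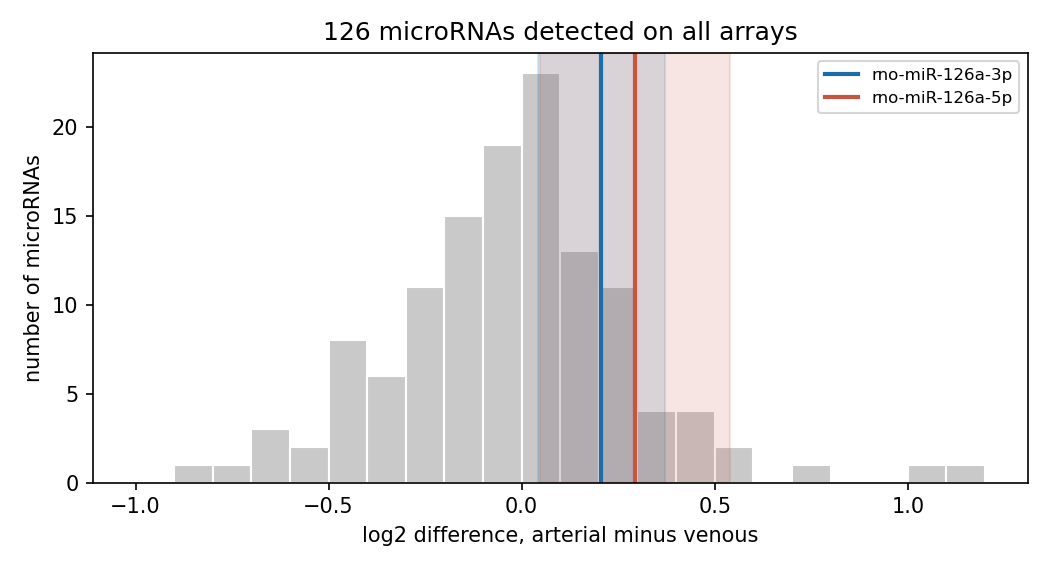
Histogram of the log2 difference, arterial minus venous, of the microRNAs detected on all arrays (number of microRNAs on the vertical axis), with vertical lines at the differences of the miR-126a arms and shading for ± 1 limma standard error. The 3p line at 0.21 lies above the upper quartile of 0.14, and the 5p line at 0.29 includes the array on which 5p was not detected, without whose rat it would stand at 0.05.

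Endothelial and vascular microRNAs were listed to set the arms among others known from vessels. The arms themselves were left out of the list. It shares rno-miR-146a-5p and rno-miR-155-5p with the platelet and leukocyte list read below, and rno-miR-92a-3p with the erythrocyte list. All 28 listed were on the array, 14 were detected on all arrays and 6 on none. None of the 28 passed the cutoff in either direction. Among the 14, 8 had a higher and 6 a lower mean in arterial plasma, with a median difference of 0.01 beside 0.00 over all detected microRNAs. In rats 1, 2 and 3 the median of the 14 was -0.28, 0.02 and 0.29, beside -0.13, 0.00 and 0.02 over all of them. The median difference of the list was 0.17 without rat 1, -0.00024 without rat 2 and -0.15 without rat 3. It was 0.43 without normalization and 0.52 with hybridisation controls, beside 0.40 and 0.49 over the detected microRNAs. With labelling controls it was -0.38, beside -0.41.

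Among the 14 detected on all arrays, the highest differences were those of rno-miR-10a-5p, rno-miR-130a-3p and rno-miR-10b-5p, none of which passed the test (adjusted p = 1 for each in limma). rno-miR-10a-5p, from a Hox gene cluster, had differences of 0.14, 1.02 and 0.48 in rats 1, 2 and 3, with a mean of 0.55 and a limma standard error of 0.24. rno-miR-10b-5p, from another Hox cluster, had 0.13, 0.11 and 0.37, with a mean of 0.20 and a standard error of 0.08. Both were higher in arterial plasma in 3 of 3 rats on these normalized values, on which neither miR-126a arm was. rno-miR-130a-3p, known for lowering antiangiogenic homeobox genes in endothelium, had -0.17, 0.68 and 0.59, lower in rat 1 and higher in rats 2 and 3 like the miR-126a arms.

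The lowest differences among the same 14 were those of rno-miR-17-5p, rno-miR-20a-5p and rno-miR-92a-3p, which are cut from 1 shared transcript, the miR-17-92 cluster. Their mean differences were -0.47, -0.29 and -0.19 (adjusted p = 1 for each in limma). rno-miR-17-5p was lower in arterial plasma in 3 of 3 rats, at -0.16, -0.77 and -0.49. The endothelial list thus held members on either side of 0, and the 3p difference, 0.21, lay between those of rno-miR-10b-5p and rno-miR-130a-3p. The 5p difference of 0.29 was not ranked among them, since it includes the venous array of rat 3 where 5p was not detected. Without rat 3 it was 0.05.

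MicroRNAs of blood cells were read beside the arms, since platelets carry miR-126 and lysed red cells release their contents into plasma. The high-speed spin and the filter step named above would remove platelets themselves, but not RNA they had already released. In plasma, a change in the number of cells that release a microRNA and a change in the amount released per cell cannot be told apart. Of 8 platelet and leukocyte microRNAs on the array, 5 were detected on all arrays and none passed the cutoff. Their median difference was -0.22, -0.40 and 0.54 in rats 1, 2 and 3. The summed normalized intensity of the 8 was 545 to 1011 in arterial and 707 to 954 in venous plasma.

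rno-miR-223-3p, the myeloid and platelet microRNA, had differences of -0.60, 0.00 and 0.69 in the 3 rats. Its normalized level was 8.36 on every venous array and on the arterial array of rat 2, a value set by its rank. The 0.00 thus reflects a shared rank under quantile normalization. rno-miR-142-3p, made in cells of the blood lineages, had -0.49, -0.92 and 0.86. rno-miR-150-5p, a lymphocyte microRNA, had -0.22, -0.40 and -0.58, lower in 3 of 3 rats, so the list did not move as one. The miR-126a arms had the same sign as the list's median in rats 1 and 3 and the other sign in rat 2. Its part in the differences of the arms was not tested.

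All 6 erythrocyte microRNAs on the array were detected on all arrays and none passed the cutoff. Their median difference was -0.25, -0.36 and 0.38 in rats 1, 2 and 3, and their summed normalized intensity was 2233 to 2606 in arterial and 2030 to 2618 in venous plasma. rno-miR-144-3p, made with rno-miR-451-5p in maturing red cells, had differences of -0.26, -0.63 and 1.1. rno-miR-451-5p held the same rank, that below the brightest microRNA, on 5 of the 6 arrays, so quantile normalization gave it the same value there, and it differed only in rat 3, by 0.79. rno-miR-486, also of red cells, was lower in arterial plasma in 3 of 3 rats, at -0.23, -1.02 and -0.47. In rat 3, the rat with the largest 5p difference, the medians of both blood cell lists were also above 0, with rno-miR-150-5p and rno-miR-486 below 0. Their part in the 5p difference was not tested.

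Of 4 vascular smooth muscle microRNAs, 2 were detected on all arrays and 2 on none. rno-miR-143-3p had differences of 0.33, 0.89 and 1.00 in rats 1, 2 and 3, and rno-miR-145-5p had 0.41, 0.10 and -0.28. Both were above 0 in rat 1, where both miR-126a arms were below 0, and they took opposite signs in rat 3. Neither passed the cutoff. rno-miR-122-5p, the main microRNA of the liver, was detected on all arrays and had differences of -0.21, 1.23 and 0.30, so it too was lower in rat 1 and higher in rats 2 and 3. Only 1 of 6 skeletal and heart muscle microRNAs was detected on all arrays, with a difference of 0.07.

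The microRNAs whose levels ran closest to the 3p arm over the 6 arrays were found by the root mean square difference of log2 levels, each microRNA centred on its own mean. They were rno-miR-23b-3p (0.0957), rno-miR-22-3p (0.104), rno-miR-29a-3p (0.108), rno-miR-146a-5p (0.126) and rno-miR-30c-5p (0.130), against a median of 0.441 over the 125 compared. Like 3p, all 5 were lower in arterial plasma in rat 1 and higher in rats 2 and 3. The 5 were chosen on these same values, so the shared signs are no separate result. The mean differences of the 5 were 0.15, 0.22, 0.08, 0.06 and 0.02, so a profile close to that of 3p over the arrays went with differences between 0.02 and 0.22.

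The sister arm was not among the closest to 3p. The distance between the arms was 0.387, and 53 of the 125 microRNAs compared were closer to 3p than 5p would be. Seen from 5p, the 3p arm was nearer than 99 of the microRNAs compared, whose median distance was 0.571. The microRNAs closest to 5p were rno-miR-29c-3p (0.154), rno-miR-99a-5p (0.161), rno-miR-130a-3p (0.183), rno-miR-15a-5p (0.236) and rno-miR-451-5p (0.237). All 5 had their lowest level in the venous plasma of rat 3, as 5p had, but the 5p reading there is from the array on which it was not detected, so these likenesses partly match a background reading. These likenesses over 6 arrays are descriptions of profiles chosen on the same values, and points of 1 rat share an animal.

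The table of probe values that was deposited in normalized form showed smaller differences for both arms. In it the 3p arm, its probes averaged, had linear intensities of 67.7, 83.1 and 80.2 in arterial and 63.9, 76.3 and 75.65 in venous plasma. The log2 differences were 0.08, 0.12 and 0.08, positive in 3 of 3 rats, with a mean of 0.10. On these values 3p passed the study's cutoff by the methods' t-test, a combination tried after the data were seen, and had an unadjusted p of 0.0543 in limma. The probes did not match in rat 1, where the dimmer gave 0.26 and the brighter -0.03. The 5p arm had 50.83, 52.67 and 46.25 in arterial and 52.67, 49.58 and 47.67 in venous plasma, and log2 differences of -0.05, 0.09 and -0.04.

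On every array the probes stand in that table in the same order as the raw reading of their first listed spots, with no background taken off, and the signal that entered it is not given in the sources used here. The processed intensity, with the background taken off, was 16.5 to 41.8% of the raw for the dimmer 3p probe, 33.7 to 63.5% for the brighter and 7.75 to 28.5% for 5p. In the venous plasma of rat 1, the first spot of the dimmer 3p probe read 46, the lowest of its 8 spots, whose mean was 50.8 ± 2.55 (SD over spots).

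The differences of the arms moved with the scaling between arrays. Without normalization the mean difference was 0.65 for 3p and 0.55 for 5p, beside a median of 0.40 over the detected microRNAs. Scaled to labelling control spots, a choice made after the data were seen, the 3p difference was -0.16 and the 5p difference -0.26, beside a median of -0.41. Counting only alternatives that gave another estimate, the 3p difference lay above the median of the detected microRNAs in 14 of 14, by 0.10 to 0.39. That of 5p lay above it in 14 of 14, by 0.0031 to 1.05. Except in the setting without rat 3, these 5p values include the venous reading that was not detected. Scaling an array by a single factor moves all microRNAs alike, so such settings repeat the unnormalized distance from the median. The highest 5p value came from the scanner software's own summary of a microRNA, the total gene signal, with which the 5p difference was 1.00 and the 3p difference 0.17. These alternatives reuse the same 6 samples and add no replicates.

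**Figure D5:**
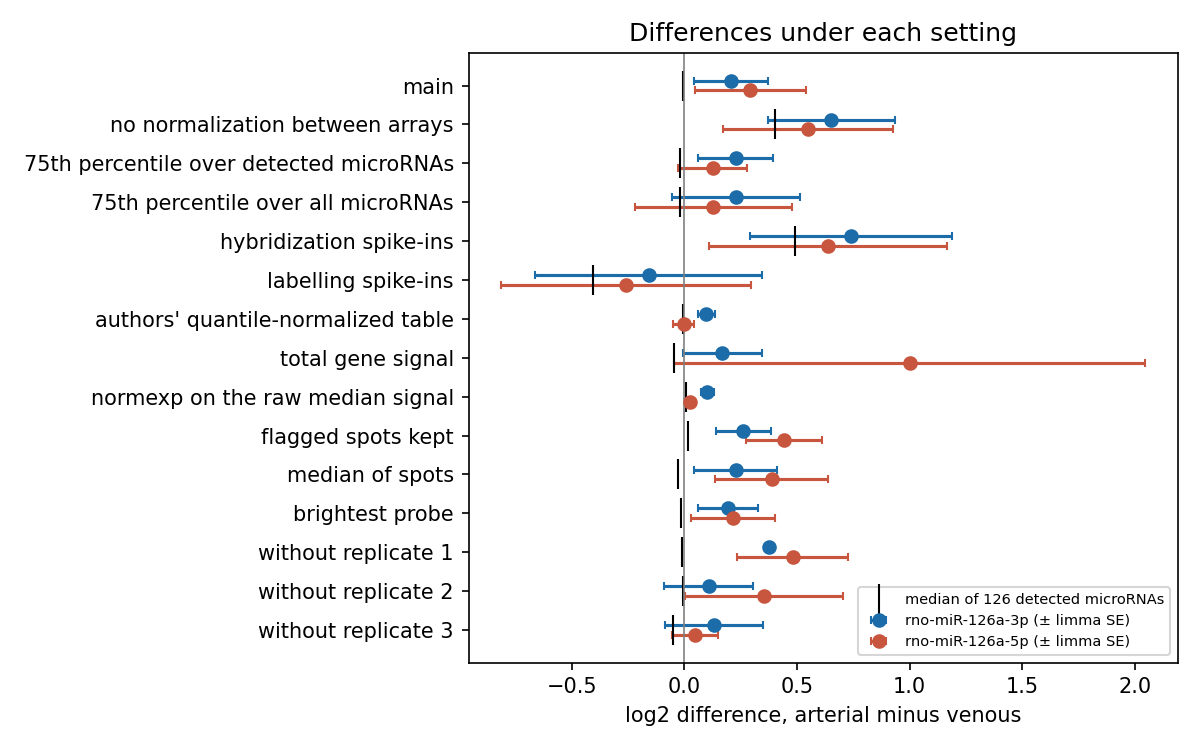
Log2 difference, arterial minus venous (horizontal axis), of the miR-126a arms under the main and other settings, with bars of ± 1 limma standard error and black ticks at the median of the microRNAs detected on all arrays. The 3p arm moves with the ticks, from -0.16 for 3p with the labelling controls to 0.74 with the hybridisation controls, and the 5p value of 1.00 under total gene signal lies far from its tick and has the widest bar.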

How the data were processed

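Spot intensities were deposited by the authors as Agilent Feature Extraction wrote them, with background subtracted and no normalization between arrays. More than the local background was taken off. In arterial plasma of rat 1 the dimmer 3p probe had a raw median of 57, a local background of 26 and a processed mean of 16.2. For Feature Extraction, version 11.0.1.1 stands in the submitters' processing notes and 10.7.3.1 in the array files' headers. A second deposited table holds linear probe intensities that the authors quantile normalized with GeneSpring.

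The miR-126a arms and the lists were chosen with earlier results of these data known. Control spots and outlier-flagged spots (8.72 to 10.4% of an array) were left out. Linear intensities were averaged first over the spots of a probe and then over a microRNA's probes. Quantile normalization over the 758 microRNAs, a floor of 1 and log2 followed. Depth is not defined for arrays.

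Differences were tested with limma 3.58.1 (lmFit, eBayes, rat as block) in R 4.3.3 at an unadjusted p of 0.025 and a Benjamini-Hochberg adjusted p of 0.05. The prior carried 0.198 degrees of freedom over 758 microRNAs and 3.22 over the 126 detected. The permutations were also run in R, while sequences and figures used Python 3.11.15. The fit was tested on simulated data. The labels give the rat of each sample, and arterial and venous samples with the same rat number were paired; their deviations from the group means correlated at 0.80, 0.69 and 0.64 over the 126.

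Beside the arms, rno-miR-126b, the 3 highest and 3 lowest differences among endothelial microRNAs detected on all arrays and the 5 profiles closest to each arm were named. Alternatives changed the scaling, spot summary, floor, filter, block and rats used.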

Additional observations from a re-analysis of the deposited data

How the results depend on the processing

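Among alternatives that gave another estimate, the 3p difference of 0.21 kept its sign in 13 of 14 and the 5p difference of 0.29 in 12 of 14. The others repeated one of these estimates or the main one with another error or set tested. Scaling to labelling controls turned them to -0.16 and -0.26, and the deposited normalized table gave 5p -0.00257; the cause was not tested. Leaving out 1 rat gave 0.11 to 0.38 for 3p and 0.05 to 0.48 for 5p. Without rat 1, the 3p difference of 0.38 passed the cutoff of 0.025 in limma, with 2 rats left, among 33 microRNAs that did so and 0 that passed after adjustment. By the methods' t-test on the deposited table, added after the data were seen, the 3p difference of 0.0963 passed the cutoff among 14 microRNAs, 1 of which, another, passed after adjustment. With normexp the 3p difference of 0.10 had an unadjusted p of 0.0276 in limma and the 5p difference was 0.02. The 5p difference was 0.13 under both 75th percentile scalings, 0.44 with flagged spots kept and 1.00 with total gene signal. The gap between the arms, -0.09, was -0.83 with total gene signal and turned to 0.10 without normalization. Scaling an array by a single factor moves both arms alike. Both 75th percentile scalings and both kinds of control spots therefore repeat that 0.10 and are no further estimates of the gap. It also turned to 0.10 in the deposited table and to 0.0778 with normexp. In these last 2 its two-sided exact permutation p was 0.25, the smallest possible. Leaving out a rat gave a gap of -0.24 to 0.0860. The 6 microRNAs past the cutoff became 2 with labelling controls or a floor of 5, 3 over those detected on all arrays, 10 with the median of spots, 11 with the brightest probe, 12 in the deposited table, 13 with normexp or a floor of 0.1, and 17 to 33 without a rat. The 0 past an adjusted p of 0.05 in limma became 1 over microRNAs detected on at least 1 array. The fit without the replicate block gave 5 past the cutoff, with p = 0.464 for 3p and p = 0.501 for 5p in limma (no permutation), and pairing changed no call for either arm. The 5p arm could not be fitted among microRNAs detected on all arrays. Signal over background limits 5p, as 37 of its 96 spots were well above background.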
